A study of Mus musculus with 10 samples.

Results

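The cadherin superfamily was examined in embryonic trigeminal ganglia with and without the transcription regulator Prdm12. Members were all protein-coding genes whose symbols name a cadherin (Cdh), a cadherin-related protein (Cdhr), a protocadherin (Pcdh), a Celsr, a Fat (Fat1 to Fat4) or a Dachsous (Dchs) protein. The rule found 106 members among the 55414 gene IDs counted, and 99 of them passed the filter on low counts that left 18005 genes for testing. They comprised 5 type I classical cadherins, 13 type II classical cadherins, 10 other Cdh and Cdhr genes, 12 non-clustered protocadherins, 9 Fat, Dachsous and Celsr genes, and 57 clustered protocadherins (14 alpha, 22 beta and 21 gamma). A further symbol of the gamma cluster, Pcdhgb8, was not annotated as protein-coding and was left out.

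Cadherins are membrane proteins whose extracellular repeats bind calcium and hold cells together. Classical cadherins pair with the same cadherin on the neighbouring cell and are tied to actin through catenins, and their combinations sort neurons, glia, vessels and connective tissue from one another. Clustered protocadherins are made from arrays of variable exons, of which each neuron uses a few, and give neurons surface identities used in self-recognition and survival. Fat and Dachsous bind each other across cell borders, and Celsr proteins join Frizzled and Vangl proteins in planar cell polarity and axon guidance. The trigeminal ganglion holds the sensory neurons of the face with their glia, vessels and connective tissue, and Prdm12 is known for its requirement in the development of pain-sensing neurons (nociceptors).

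RNA sequencing was carried out on trigeminal ganglia dissected at the embryonic stage E13.5 from mice of strain C57Bl6. The 5 knockout libraries (replicates 16, 29, 42, 49 and 50) were Prdm12-/- and the 5 wild-type libraries (replicates 22, 24, 32, 35 and 45) were Prdm12+/+, and all 10 also carried Sox10 Venus+, a reporter allele by its name. The labels name no cell sorting, do not say which piece of Prdm12 the allele lacks, and leave unsaid whether separate embryos gave separate libraries, so that p-values reflect only how far these libraries scatter, which may be technical. The sample titles also begin with a different letter in each genotype, and only the wild-type titles carry the words Venus plus. Anything that these differences in title stand for cannot be told apart from genotype. Values of single libraries are given below in the replicate order just listed.

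Knockout 49 had a total count of 3258008, knockout 29 one of 13603690, and the other 8 libraries 27308327 to 33556002. Levels are given as CPM, here counts over the library's sum in the tested genes scaled by its TMM factor, and on that scale 3 counts corresponded to 0.869 CPM for knockout 49, 0.236 CPM for knockout 29 and 0.0889 to 0.107 CPM elsewhere. Prdm12 itself (ENSMUSG00000079466) was at 8.74 to 42.7 CPM in the knockout and 74.3 to 264 CPM in the wild type, with no overlap. All 8 neuron markers were detected, at a summed 4723 to 11582 CPM in the knockout and 6793 to 12331 CPM in the wild type, and 8 glial markers summed to 1407 to 5184 and 1355 to 2533 CPM. By edgeR all 8 neuron markers were fitted lower in the knockout, 5 of them at an unadjusted p under 0.05, beside 6.73% of all genes. All 8 nociceptor markers, a list that includes Prdm12 and was chosen with these results known, were lower in the knockout by edgeR's adjusted p, with sums of 122 to 239 CPM against 1152 to 2645 CPM. Connective-tissue markers summed to 707 and 988 CPM in wild-type 32 and 35 and to 2841 to 10576 CPM in the other 8 libraries. Wild-type 32 and 35 were also the most alike pair of 1 genotype, with a chi-square per gene of 9.88 where the other 19 pairs had 17.3 to 247. Muscle markers summed to 23.1 to 117 CPM in the knockout and 13.3 to 248 CPM in the wild type, macrophage markers to 154 to 331 and 45.3 to 263 CPM, and markers of mechanoreceptors and proprioceptors to 774 to 1150 and 505 to 562 CPM, with 1 of the latter 8 called higher and 1 lower. By edgeR, 0 markers of the other 9 lists were called. Pituitary markers reached 452 CPM in knockout 49 and 48.1 CPM in wild-type 45, against 1.80 to 18.7 CPM elsewhere. In whole ganglia, fewer cells of a type and less RNA per cell cannot be told apart.

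In the wild type, the highest levels belonged to genes of several subgroups, and whole-ganglion counts do not show which cells expressed them. Levels between genes were compared as CPM per kilobase of exon not shared with another gene. Cdh11, a type II cadherin of mesenchyme, had the highest level at 47.5 ± 15.8 CPM per kb (SD, n = 5). Celsr3, which guides axon tracts, followed at 24.8 ± 12.3 CPM per kb, Cdh24 at 22 ± 6.63, the endothelial cadherin Cdh5 at 20.3 ± 9.26, and the neural cadherin Cdh2 at 19.8 ± 1.97. These 4 levels differed from one another by less than the SD of Celsr3. Cdhr1 came sixth at 16.6 ± 5.22 CPM per kb, followed by Dchs1 at 15.3 ± 3.92 and Pcdh18 at 13.4 ± 8.15, and these 3 did not differ beyond their spread. Among clustered genes the C-type gamma gene Pcdhgc3 stood highest at 13.3 ± 4.70 CPM per kb. The median level was 2.21 CPM per kb over the 20 tested gamma genes, 1.82 over 12 alpha genes and 1.31 over 21 beta genes. It was 9.24 CPM per kb over the 9 Fat, Dachsous and Celsr genes. How reads in exons shared by alpha or by gamma genes were assigned was not given in the sources used here. Levels per kb of unshared exon in these 2 clusters, Pcdhgc3 included, are therefore uncertain beside those of beta and other genes.

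**Figure D1:**
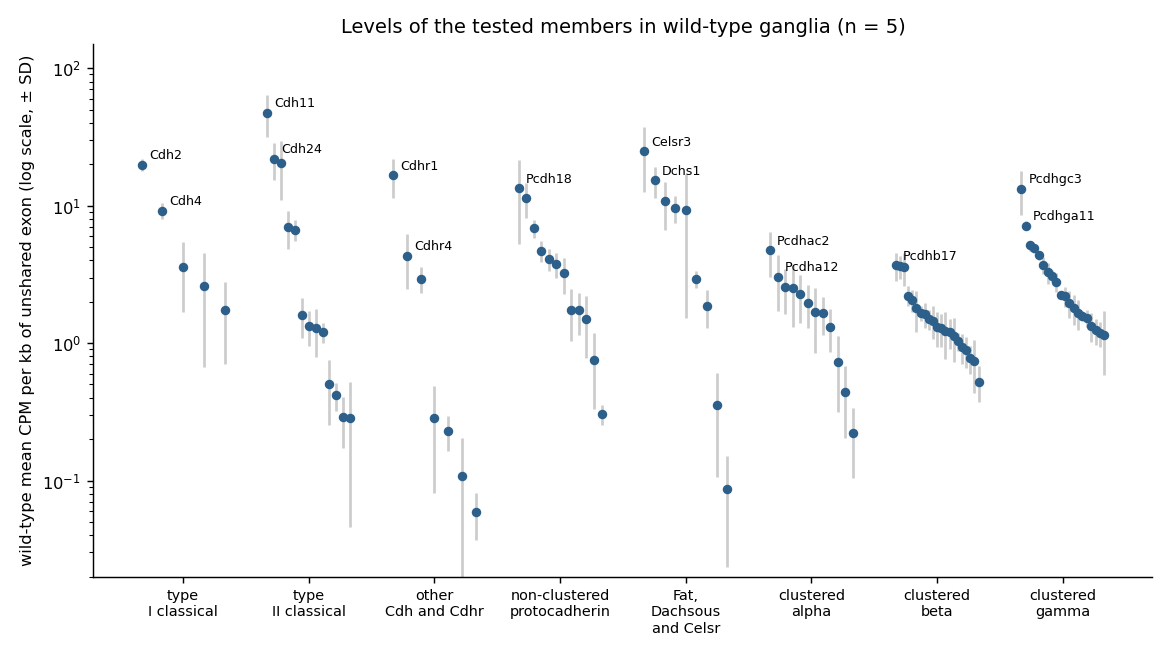
Wild-type level of each tested member, as mean CPM per kb of unshared exon on a log axis (points, n = 5 libraries; bars, SD), arranged by subgroup and in falling order within it. Cdh11 was highest at 47.5 CPM per kb, and the clustered genes lay between 0.221 and 13.3 CPM per kb.

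The 7 members that did not pass the filter had at most 82 counts over all 10 libraries. These were Cdh26 with 54 counts, the kidney cadherin Cdh16 with 8, the brush-border protein gene Cdhr2 with 82, Pcdha4 with 16, 1 of 2 gene IDs that share the symbol Pcdha11 (ENSMUSG00000102206) with 23, Pcdhb1 with 4, and Pcdhga10 with 0. All 4732 exonic bases of Pcdhga10 in the GENCODE M21 annotation lie in exons of other genes, so its count of 0 says nothing of its expression. The filter asked for 5 libraries at its level, of either genotype. Cdhr3 and Cdh9 had 5 in the wild type but 1 and 4 in the knockout, whereas Cdh17, Cdhr5, Dchs2 and Pcdha8 had 5 in the knockout but 4, 2, 3 and 3 in the wild type. In these 6, only 1 genotype reached the level in all its libraries, and Cdhr3 passed mainly through the wild type.

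Against this background 1 member changed. Cdhr1 (ENSMUSG00000021803), a photoreceptor cadherin of the light-sensing outer segments that is also known from olfactory bulb neurons, was at 11.8, 19.1, 4.73, 4.92 and 8.56 CPM in the knockout libraries and at 88.0, 61.3, 85.0, 88.8 and 37.1 CPM in the wild-type libraries. Every knockout library lay below every wild-type library. The means were 9.83 ± 5.96 against 72.1 ± 22.6 CPM (SD, n = 5 each), and Cdhr1 fell by 2.85 on the log2 scale (SE 0.40, a level 7.21-fold lower; adjusted p = 0.00945 by edgeR's quasi-likelihood test with Benjamini-Hochberg adjustment over 18005 genes). Members lower by this test numbered 1 of 99, beside 0.372% of all genes tested. Members higher by edgeR's quasi-likelihood test numbered 0 of 99, beside 0.0944% of all genes. At an unadjusted p under 0.05, 20 members were higher and 4 lower, beside 6.40% and 6.73% of all genes. DESeq2 called 8 members higher and 3 lower, beside 1.75% and 1.23% of its 20219 genes, and limma-voom with quality weights called 13 higher and 3 lower, beside 7.02% and 6.0% of 18005.

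As a share of the summed neuron markers, Cdhr1 was 0.128 ± 0.0336% in knockout libraries against 0.798 ± 0.289%, again without overlap (two-sided exact permutation p = 0.00794, the smallest that 5 against 5 libraries can give; 0.0370 adjusted over 14 such ratios). As a share of the summed nociceptor markers it was 5.95 ± 2.53% in knockout libraries against 4.42 ± 1.79%, with overlapping libraries. That sum was itself 160 CPM on average in the knockout and 1765 CPM in wild-type libraries, so a gene that is lower by less than the list has a larger share of it, and no direction is read from this ratio. Without wild-type 32 and 35, which had the lowest connective-tissue marker sums, the call was lost (log2 fold change -2.58, adjusted p = 0.100). All of the other 17 alternative fits of the count models kept it, with adjusted p from 7.81e-10 to 0.0448.

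A pair of further members had libraries that separated the genotypes in the same direction without passing the test over all genes. Pcdh15 (ENSMUSG00000052613), which forms the lower end of the tip link of inner-ear hair cells, was at 13.0, 3.78, 6.08, 12.2 and 10.1 CPM in the knockout and at 36.6, 13.8, 53.5, 50.6 and 23.3 CPM in the wild type. The closest libraries were knockout 16 and wild-type 24. Its log2 fold change was -1.99 (SE 0.42, edgeR adjusted p = 0.0713), and relative to neuron markers it was 0.145 ± 0.0824% against 0.381 ± 0.143% (exact permutation p = 0.0238, adjusted p = 0.0556). Cdh23, the upper end of the same tip link, was at a low level, 0.785 ± 0.256 against 0.994 ± 0.371 CPM, with 3 counts in knockout 49. Its genotypes overlapped (log2 fold change -0.39, edgeR adjusted p = 0.657).

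Cdhr3 (ENSMUSG00000035860), known as the receptor of rhinovirus C in airway cells, was a gene of low counts. Knockout libraries held 4, 7, 3, 0 and 5 counts and wild-type libraries 32, 25, 44, 31 and 22, which made 0 to 0.551 CPM and 0.775 to 1.52 CPM. The knockout libraries were all lower, but in knockout 49 a count of 0 allows up to 0.869 CPM, a level that reaches into the wild-type range. The log2 fold change was -2.40 (SE 0.50, edgeR adjusted p = 0.0689). In all, 3 of 99 members had every knockout library below every wild-type library, or 3.03%, beside 2.92% of all genes tested, so the share was near that of all genes. Cdhr3 is among them, though it reached the filter level in 5 wild-type libraries but 1 knockout library. No change is read from its separation.

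The promoters of these 3 genes are shown because they are the members with every knockout library lower. Each window runs from 250 bases before to 50 bases after the RefSeq gene start, in build GRCm38.p6, 5′ to 3′ on the gene's own strand, with TAAT or ATTA, the core that homeodomain proteins bind (both strands searched, overlaps counted), in capitals. The windows are chr14:37098298-37098597 on the minus strand for Cdhr1, chr10:73821617-73821916 on the plus strand for Pcdh15 and chr12:33092826-33093125 on the minus strand for Cdhr3.
Cdhr1: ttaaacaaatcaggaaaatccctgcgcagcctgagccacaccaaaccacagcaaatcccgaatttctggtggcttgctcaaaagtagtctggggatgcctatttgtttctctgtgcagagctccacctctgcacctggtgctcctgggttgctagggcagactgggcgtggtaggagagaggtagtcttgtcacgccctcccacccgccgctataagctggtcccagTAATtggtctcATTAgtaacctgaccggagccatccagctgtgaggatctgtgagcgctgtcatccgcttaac
Pcdh15: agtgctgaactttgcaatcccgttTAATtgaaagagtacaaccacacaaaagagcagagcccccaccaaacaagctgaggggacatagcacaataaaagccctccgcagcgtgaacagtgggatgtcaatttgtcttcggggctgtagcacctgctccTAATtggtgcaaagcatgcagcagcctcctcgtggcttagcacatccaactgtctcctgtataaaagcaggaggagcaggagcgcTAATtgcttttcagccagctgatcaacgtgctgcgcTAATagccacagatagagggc
Cdhr3: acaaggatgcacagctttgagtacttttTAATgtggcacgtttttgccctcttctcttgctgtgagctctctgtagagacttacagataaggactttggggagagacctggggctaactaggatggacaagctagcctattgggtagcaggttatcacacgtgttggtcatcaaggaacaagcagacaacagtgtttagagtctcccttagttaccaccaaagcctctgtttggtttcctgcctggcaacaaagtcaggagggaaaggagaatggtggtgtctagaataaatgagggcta
The core occurred 2 times in the Cdhr1 window, 4 times in that of Pcdh15 and 1 time in that of Cdhr3. It was held by 58.0% of all 32851 RefSeq promoter windows of 300 bases, and at least 2 copies by 34.1%. Of 34 members with a RefSeq window, 58.8% held it, close to the share of all promoters. E-boxes, searched as CANNTG, occurred 2, 3 and 1 times in the 3 windows and in 72.3% of all. A match describes letters in a window and is not a site.

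**Figure D2:**
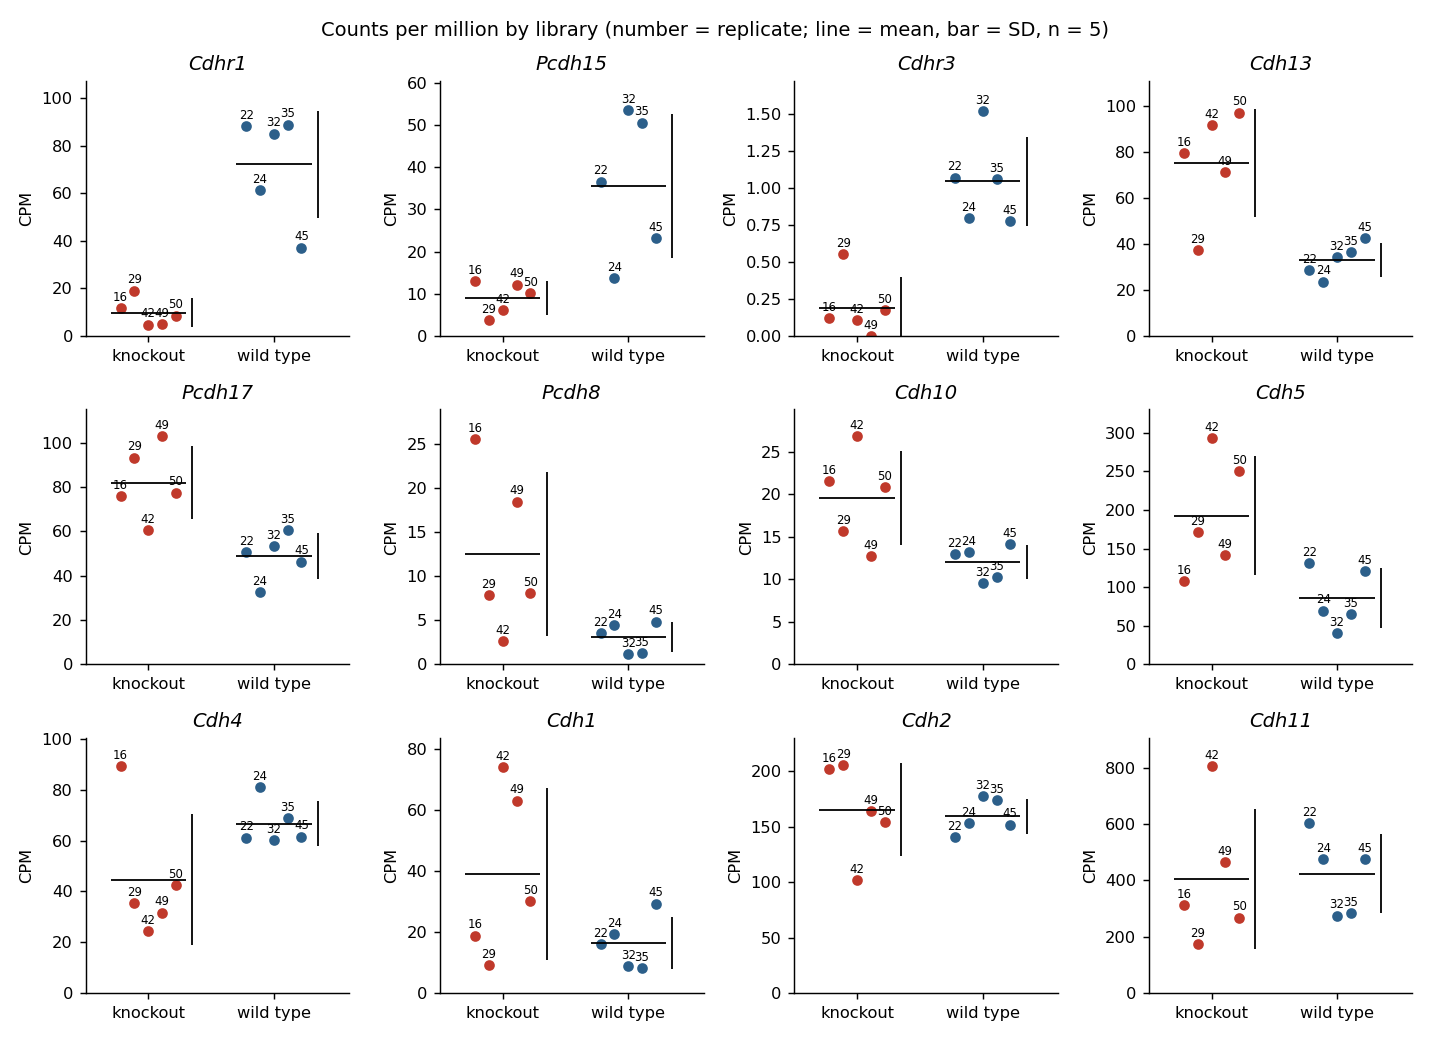
CPM of 12 members in each library (points labelled by replicate; horizontal line, mean; vertical bar, SD; n = 5 per genotype; every axis starts at 0). Cdhr1, Pcdh15 and Cdhr3 have no overlap between genotypes, and in Cdh4 knockout 16 stands at 89.4 CPM above all other knockout libraries.

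Type I classical cadherins, which give strong like-with-like adhesion, showed no shared direction. The neural cadherin Cdh2, found on both neurons and glia, was at 202, 206, 102, 164 and 154 CPM in the knockout and 141, 153, 178, 174 and 152 CPM in the wild type. The groups overlapped, with a log2 fold change of 0.05 (SE 0.18, edgeR adjusted p = 0.922). Cdh4, or R-cadherin, of retina and brain, was at 89.4, 35.4, 24.3, 31.6 and 42.5 CPM against 61.1, 81.1, 60.3, 68.8 and 61.5 CPM. Knockout 16 exceeded every wild-type library, while the other 4 knockout libraries lay below all 5. The log2 fold change was -0.57 (SE 0.30, edgeR adjusted p = 0.439), and -0.99 without knockout 16 (adjusted p = 0.0470), so that 1 library decided the call.

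The epithelial cadherin Cdh1 was at 18.8, 9.21, 74.1, 63.1 and 30.2 CPM in the knockout and 16.1, 19.2, 8.83, 8.23 and 29.3 CPM in the wild type (log2 fold change 1.25, SE 0.54, edgeR adjusted p = 0.360). Knockout 42 and 49 were the high libraries. Epithelial markers summed to 3.46 to 273 CPM in the knockout, where knockout 49 was highest, and to 2.81 to 44.9 CPM in the wild type, with 0 of 6 tested markers called. In knockout 42 the epithelial sum was 8.75 CPM, so its 74.1 CPM of Cdh1 came with few of those markers. Cdh3 (P-cadherin) and the muscle cadherin Cdh15 had log2 fold changes of 0.33 and 0.01 with overlapping groups. Over the 5 type I genes, 4 were fitted above 0, and 2 without knockout 16 or without wild-type 32 and 35. Their median log2 fold change was 0.05, against -0.03 over all genes tested, and turned to -0.03 without knockout 16, -0.18 without wild-type 32 and 35 and 0.40 without wild-type 22.

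Among 13 type II classical cadherins, 0 were called by edgeR. At an unadjusted p under 0.05, 3 were higher and 1 lower, beside 6.40% and 6.73% of all genes. Cdh5, or VE-cadherin, which seals the junctions between endothelial cells, was at 108, 171, 293, 142 and 250 CPM in the knockout and 131, 69.6, 40.5, 65.1 and 121 CPM in the wild type. Knockout 42 and 50 were highest and wild-type 32 lowest, with overlap from wild-type 22 and 45. The means were 193 ± 76.6 and 85.5 ± 38.9 CPM (log2 fold change 1.17, SE 0.35, edgeR adjusted p = 0.202). Endothelial markers summed to 389 to 974 CPM in the knockout and 226 to 497 CPM in the wild type. Of those 10 markers, 0 were called, 8 were higher at an unadjusted p under 0.05 (beside 6.40% of all genes) and none was at 0 in all libraries. Cdh5 as a share of that sum was 28.1 ± 4.47% in knockout libraries against 23.5 ± 3.31% (exact permutation p = 0.0556, adjusted p = 0.0972).

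Cdh10, a type II cadherin of brain neurons, was at 21.6, 15.7, 26.9, 12.7 and 20.9 CPM in the knockout and 13.0, 13.2, 9.56, 10.3 and 14.2 CPM in the wild type. Only knockout 49 lay within the wild-type range, and the log2 fold change was 0.71 (SE 0.21, edgeR adjusted p = 0.204). Cdh6, a cadherin of neural crest derivatives and kidney, had a log2 fold change of 0.42 (SE 0.18, edgeR adjusted p = 0.353). Cdh19, a cadherin of Schwann cell precursors, was the 1 type II gene that was lower at an unadjusted p under 0.05, at 21.0 ± 4.22 against 30.0 ± 9.12 CPM (log2 fold change -0.51, edgeR adjusted p = 0.364). As a share of glial markers Cdh19 was 1.10 ± 0.353% against 1.53 ± 0.379% (exact permutation p = 0.127, adjusted p = 0.198).

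Cdh11 was at 173 to 807 CPM in knockout libraries and 275 to 604 CPM in wild-type ones, with a log2 fold change of -0.06 (SE 0.38, edgeR adjusted p = 0.956). Knockout 42, which had the highest connective-tissue sum at 10576 CPM, was also its highest library, but wild-type 32 and 35 still held 275 and 285 CPM beside the lowest sums. As a share of those markers Cdh11 was 6.80 ± 1.61% against 19.4 ± 13.7%, with 38.9 and 28.9% in wild-type 32 and 35. The genotypes did not overlap (exact permutation p = 0.00794, adjusted p = 0.0370), but knockout 16 at 8.06% lay close to wild-type 24 at 8.25%. The connective-tissue sum was itself higher on average in the knockout (5879 against 3558 CPM), which lowers this ratio. No change of Cdh11 is read from it. Cdh24 was at 66.2 to 141 CPM in the knockout; in the wild type 4 libraries lay between 84.6 and 93.7 CPM and wild-type 24 was at 36.1 CPM. The neural type II cadherins Cdh7, Cdh8, Cdh20 and Cdh22 each peaked in knockout 16, with 10.4, 22.5, 5.33 and 8.0 CPM, and overlapped between genotypes. Markers of the central nervous system summed to 130 CPM in knockout 16 and to 0.239 to 40.1 CPM in the other 9 libraries, with 0 of 6 tested markers called. The part of those cells in the 4 peaks was not tested. Cdh9, Cdh12 and Cdh18 had log2 fold changes of 0.44, 0.10 and 0.20. Over the type II genes the median log2 fold change was 0.39, with 10 of 13 above 0, and the median was 0.16 without knockout 16.

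Among the other Cdh and Cdhr genes, 4 of 7 tested were fitted above 0 (57.1%, beside 46.3% of all genes), Cdh13 among them. Cdh13, or T-cadherin, is held in the membrane by a lipid anchor, lacks the catenin-binding tail and is known in both vessels and neurons. It was at 79.5, 37.5, 91.7, 71.2 and 97.2 CPM in the knockout and 28.6, 23.7, 34.2, 36.4 and 42.5 CPM in the wild type. Only knockout 29 fell inside the wild-type range. The means were 75.4 ± 23.5 and 33.1 ± 7.21 CPM, 2.28-fold higher in the knockout, but the edgeR adjusted p was 0.0623 (log2 fold change 1.19, SE 0.25). Without knockout 29 it was called, with a log2 fold change of 1.40 (adjusted p = 0.00909), and it was called in 5 of 18 alternative fits. Its share of endothelial markers was 12.1 ± 5.49% against 10.3 ± 3.81% (exact permutation p = 0.643, adjusted p = 0.692), and its ratio to neuron markers was 1.20 ± 0.549% against 0.380 ± 0.144% (exact permutation p = 0.0238, adjusted p = 0.0556). The lower neuron marker sum of the knockout, 7227 against 9270 CPM on average, raises the latter ratio. Cdhr4 had a log2 fold change of 0.27. The intestinal genes Cdh17 and Cdhr5 averaged under 3 CPM in both genotypes, with log2 fold changes of 1.02 and 1.45 (edgeR adjusted p = 0.575 and 0.410).

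Some non-clustered protocadherins act on the actin-regulating WAVE complex or on cadherin turnover, and several direct axon growth. Of 12 tested, 0 were called by edgeR and 9 were fitted above 0, beside 46.3% of all genes. At an unadjusted p under 0.05, 5 were higher and 1 lower, beside 6.40% and 6.73% of all genes. Pcdh17, which acts in axon extension and presynaptic assembly, was at 75.8, 93.3, 60.5, 103 and 77.5 CPM in the knockout and 50.8, 32.7, 53.5, 60.6 and 46.4 CPM in the wild type. The groups met only where knockout 42 (60.5 CPM) fell just below wild-type 35 (60.6 CPM). Its log2 fold change was 0.75 (SE 0.19, edgeR adjusted p = 0.119), and relative to neuron markers the genotypes did not overlap, at 1.25 ± 0.540% against 0.550 ± 0.155% (exact permutation p = 0.00794, adjusted p = 0.0370). The neuron marker sum was itself lower on average in the knockout (7227 against 9270 CPM), which raises this ratio. The ratio of Pcdh17 to endothelial markers was 7.42 to 19.5% against 9.66 to 23.7% (exact permutation p = 0.643).

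Pcdh10, which acts on axon growth in the forebrain, was at 83.7 to 131 CPM in the knockout and 54.5 to 86.6 CPM in the wild type (log2 fold change 0.52, SE 0.17, edgeR adjusted p = 0.250). Pcdh8, a protocadherin that takes cadherins off the surface at active synapses, had the highest fitted value in the family. It was at 25.6, 7.87, 2.67, 18.5 and 8.07 CPM in the knockout and 3.60, 4.51, 1.21, 1.33 and 4.86 CPM in the wild type. Knockout 16 and 49 held the high values and knockout 42 lay within the wild-type range, and the log2 fold change was 2.0 (SE 0.60, edgeR adjusted p = 0.202). Those libraries also held the highest sums of central nervous system markers (knockout 16, 130 CPM) and pituitary markers (knockout 49, 452 CPM), whose part in the Pcdh8 values was not tested.

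Pcdh12, an endothelial protocadherin, was at 11.3 to 28.3 CPM in the knockout, highest in knockout 42 and 50, and at 7.31 to 15.0 CPM in the wild type (log2 fold change 0.91, SE 0.29, edgeR adjusted p = 0.234). As a share of endothelial markers it was 2.87 ± 0.0850% in the knockout against 3.0 ± 0.276% (exact permutation p = 0.357). Pcdh18 was at 64.0 to 109 CPM in the knockout libraries. It was at 26.1 and 30.8 CPM in wild-type 32 and 35 and at 76.2 to 128 CPM in the other 3 wild-type libraries. Those 2 libraries had the lowest connective-tissue marker sums, and without them the fitted sign turned, to -0.16 from 0.27. Pcdh7 had a log2 fold change of -0.01 (SE 0.27), with 44.8 to 126 CPM in the knockout and 68.0 to 123 CPM in the wild type. Its sign was positive under RLE scaling and DESeq2. Pcdh1, known from airway epithelium, was at 91.2 ± 29.7 against 60.1 ± 9.20 CPM (log2 fold change 0.60, edgeR adjusted p = 0.267). Pcdh9, Pcdh11x, Pcdh19 and Pcdh20 overlapped between genotypes, with log2 fold changes of 0.36, 0.24, -0.04 and 0.47.

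**Figure D3:**
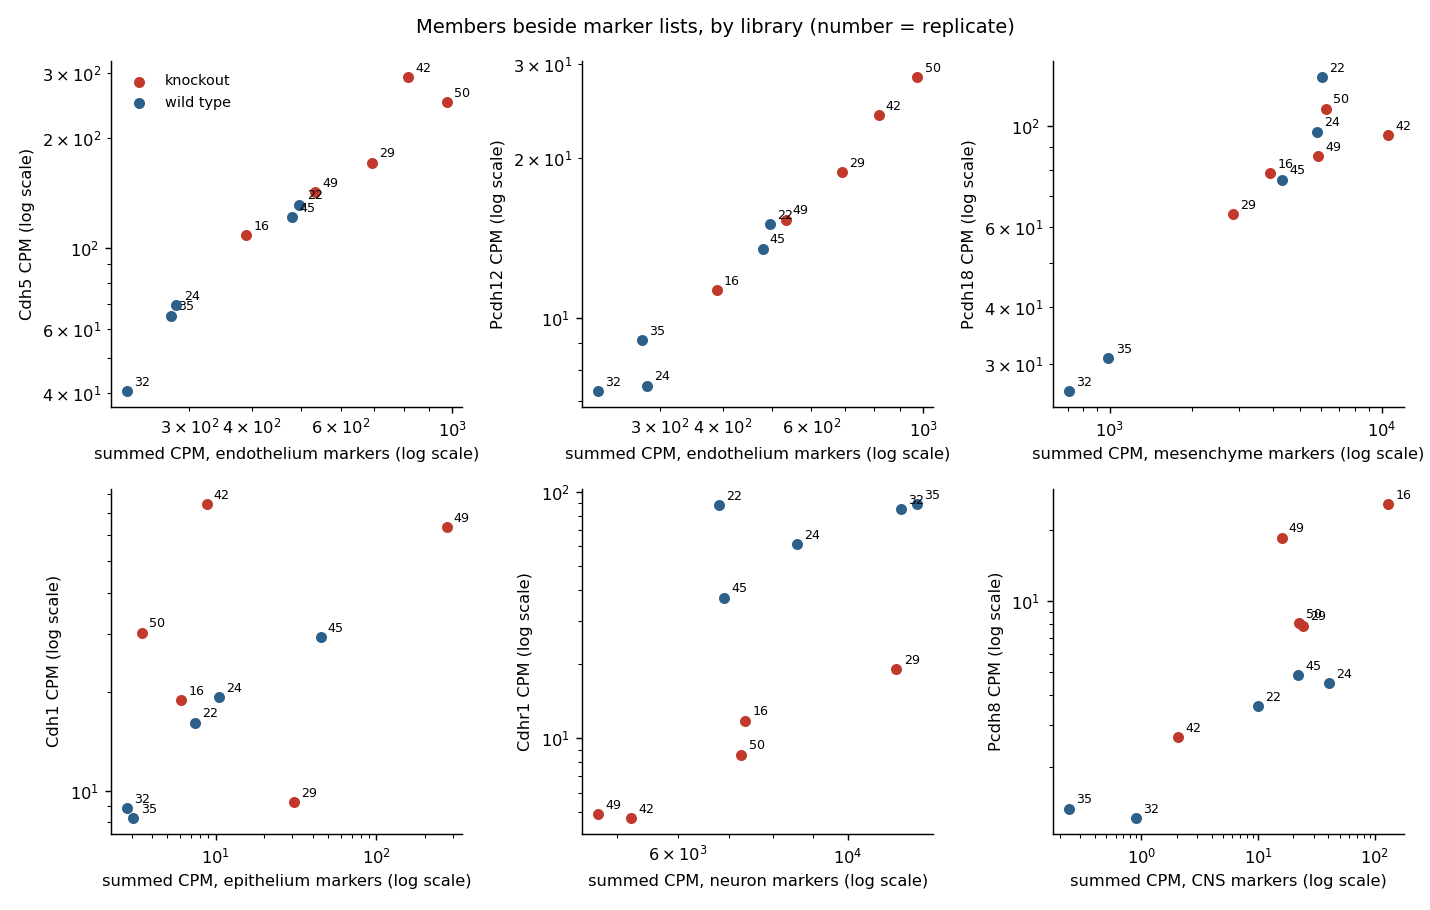
CPM of 6 members against the summed CPM of a marker list in the same library (both axes log scaled; points labelled by replicate; CNS, central nervous system). Cdh5 and Pcdh12 are high in the libraries with a high endothelial sum in both genotypes, whereas Cdhr1 is at 4.73 to 19.1 CPM in the knockout and 37.1 to 88.8 CPM in the wild type.

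In the Fat, Dachsous and Celsr group, 8 of 9 genes were fitted above 0, beside 46.3% of all genes, with a median log2 fold change of 0.43. However, 0 were called by edgeR, and 2 were higher at an unadjusted p under 0.05, beside 6.40% of all genes. The median was 0.25 without knockout 16 and 0.66 without wild-type 22. Fat1, a giant cadherin of epithelia, muscle and migrating cells, was at 219, 214, 292, 319 and 200 CPM in the knockout and 248, 140, 100, 121 and 207 CPM in the wild type. Wild-type 22 and 45 overlapped the knockout range (log2 fold change 0.61, SE 0.25, edgeR adjusted p = 0.340). Celsr1, a core planar polarity protein, was at 54.0, 103, 28.1, 52.4 and 39.1 CPM against 24.6, 36.4, 33.6, 32 and 34.0 CPM (log2 fold change 0.78, SE 0.29, edgeR adjusted p = 0.298). Knockout 29 was the high library and knockout 42 lay inside the wild-type range.

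Fat4 and its ligand Dchs1 differed little between genotypes against their spread. Fat4 was at 90.0 to 361 CPM in the knockout and 27.1 to 312 CPM in the wild type, and was lowest in wild-type 32 and 35. Dchs1 was at 246, 198, 212, 187 and 160 CPM against 221, 145, 125, 126 and 180 CPM (log2 fold change 0.33, SE 0.18, edgeR adjusted p = 0.458). Celsr3 was at 122 to 398 CPM against 100 to 465 CPM (log2 fold change -0.30, SE 0.41, edgeR adjusted p = 0.774); wild-type 32 and 35 were highest, and without them its value was 0.34. Fat2, of cerebellar granule cells and epidermis, was at 3.53, 1.18, 32.9, 14.2 and 19.2 CPM against 7.07, 6.14, 0.935, 2.01 and 9.61 CPM (log2 fold change 1.47, SE 0.80, adjusted p = 0.451). Celsr2, Fat3 and Dchs2 had log2 fold changes of 0.42, 0.43 and 0.35 and overlapped.

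**Figure D4:**
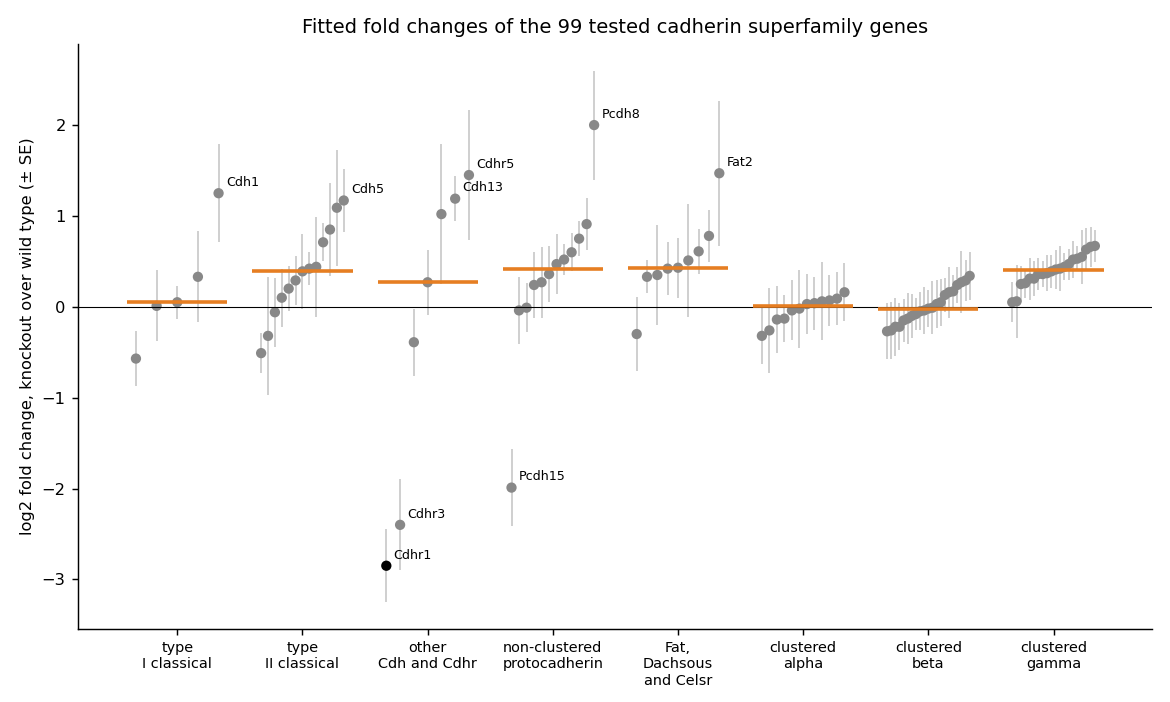
Fitted log2 fold change, knockout over wild type, of the 99 tested members by subgroup (points; bars, SE; orange line, subgroup median; black point, adjusted p under 0.05). Cdhr1 is the 1 called member, and the alpha and beta medians lie at 0.00 and -0.02 where the gamma median is 0.40.

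The 3 protocadherin clusters lie side by side on chromosome 18, and their alpha and gamma members share constant exons. The assignment of reads in shared exons was not given in the sources used here, so the counts of single alpha and gamma genes are uncertain. Pcdhga10, whose 4732 exonic bases all lie in exons of other genes in GENCODE M21, had 0 counts, so shared exons gave this gene no reads. Whether that held for every shared exon was not tested. None of the 53 tested clustered genes was called by edgeR. At an unadjusted p under 0.05, 8 were higher, all gamma, and 0 lower, beside 6.40% and 6.73% of all genes. DESeq2 called 3 gamma genes higher (Pcdhga2, Pcdhga7 and Pcdhgb6), and limma-voom with quality weights called 8, beside 1.75% and 7.02% of all genes. The fitted values differed by cluster. All 20 tested gamma genes lay above 0, from 0.05 to 0.67 with a median of 0.40, against 6 of 12 alpha genes (median 0.00) and 9 of 21 beta genes (median -0.02), and 46.3% of all genes tested. Neighbouring genes that share exons are not independent of one another, and no test was made on the clusters as units.

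In 6 gamma genes every knockout library lay above every wild-type library, which is 30.0% of those tested, beside 1.29% of all genes. These were Pcdhga2, Pcdhga3, Pcdhga7, Pcdhga12, Pcdhgb4 and Pcdhgb6, and they were the 6 members of the whole family (6.06% of 99) with that property. Together with the 3 lower ones, Cdhr3 with its few knockout counts among them, 9 members had genotypes without overlap, beside 4.21% of all genes in either direction. Pcdhga7 (ENSMUSG00000103472) had the highest fitted value, with 13.7, 10.8, 13.9, 15.9 and 12.5 CPM in the knockout and 9.44, 9.14, 6.55, 7.03 and 9.72 CPM in the wild type (log2 fold change 0.67, SE 0.18, edgeR adjusted p = 0.161). Pcdhgb6 (ENSMUSG00000103088) was at 20.9, 20.1, 16.4, 18.2 and 18.9 CPM against 13.1, 14.4, 11.4, 12.9 and 13.9 CPM (log2 fold change 0.53, SE 0.14, edgeR adjusted p = 0.144). In these 2 genes the lowest knockout libraries, at 10.8 and 16.4 CPM, stood above the highest wild-type libraries, at 9.72 and 14.4 CPM.

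The other 4 genes differed by less, and their lowest knockout library stood only just above the highest wild-type library. For Pcdhga2 that lowest value rested on 42 counts in knockout 49, the library with the lowest total count. Pcdhga2 was at 12.2 to 18 CPM in the knockout and 10.1 to 12.1 CPM in the wild type, Pcdhga3 at 14.1 to 19.4 and 11.5 to 13.9, Pcdhga12 at 10.5 to 13.7 and 6.62 to 10.3, and Pcdhgb4 at 5.51 to 6.52 and 3.29 to 5.44. Their log2 fold changes were 0.44, 0.36, 0.47 and 0.52, with edgeR adjusted p of 0.264, 0.322, 0.291 and 0.321. Of the C-type gamma genes, used more widely among neurons than the A and B types, Pcdhgc3 was at 42.7, 38.6, 40.6, 31.6 and 37.3 CPM against 24.6, 38.3, 16.1, 18.8 and 23.4 CPM (log2 fold change 0.66, SE 0.22, edgeR adjusted p = 0.243). Wild-type 24 was its 1 wild-type library inside the knockout range, and without it Pcdhgc3 was called, with a log2 fold change of 0.93 (adjusted p = 0.0329). Pcdhgc4, known for its role in neuron survival, had a log2 fold change of 0.55 (SE 0.30) and Pcdhgc5 one of 0.06 (SE 0.40); the differences between these genes were not tested.

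Summed over its genes, the gamma cluster gave 246, 204, 203, 197 and 211 CPM in the knockout and 167, 164, 133, 149 and 164 CPM in the wild type, or 212 ± 19.6 against 155 ± 14.2 CPM. All knockout sums lay above all wild-type sums. The alpha sums were 65.5, 53.2, 46.8, 44.9 and 65.3 CPM against 34.7, 35.4, 80.5, 76.4 and 56.6 CPM, and the beta sums 163, 132, 144, 135 and 152 CPM against 137, 91.5, 170, 168 and 160 CPM. Both overlapped, and the wild-type libraries were the more scattered. Wild-type 32 and 35 had the highest alpha sums and the lowest gamma sums, so their gamma to alpha ratios were 1.66 and 1.95, where the other 8 libraries had ratios of 2.90 to 4.81.

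The contrast between the gamma and alpha clusters depended on wild-type 32 and 35 together, while the alpha and beta counts also moved with single libraries. Without wild-type 32 and 35, all 12 alpha genes (median 0.46), 20 of 21 beta genes (median 0.20) and all 20 gamma genes (median 0.40) were fitted above 0, as were 84 of all 99 members. Without wild-type 24, 1 of 12 alpha, 7 of 21 beta and 18 of 20 gamma genes were above 0, with medians of -0.11, -0.08 and 0.46. With each library left out in turn, genes above 0 numbered 1 to 10 of 12 in the alpha, 7 to 15 of 21 in the beta and 18 to 20 of 20 in the gamma cluster. The medians in these fits were -0.13 to 0.16, -0.12 to 0.11 and 0.30 to 0.48, so no single library removed the contrast. The alpha count was 1 without wild-type 22, 3 without knockout 16 or knockout 50, and 10 without wild-type 32, and the beta count was 15 without knockout 29 and 14 without wild-type 32. In limma-voom with quality weights 0 of 12 alpha genes were above 0 (median -0.14), and 18 of 20 gamma genes were. The most abundant beta genes, Pcdhb22 and Pcdhb17, had log2 fold changes of -0.02 and 0.17, and the alpha gene Pcdhac2 one of -0.13. Pcdhb22 was positive under RLE scaling and DESeq2.

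**Figure D5:**
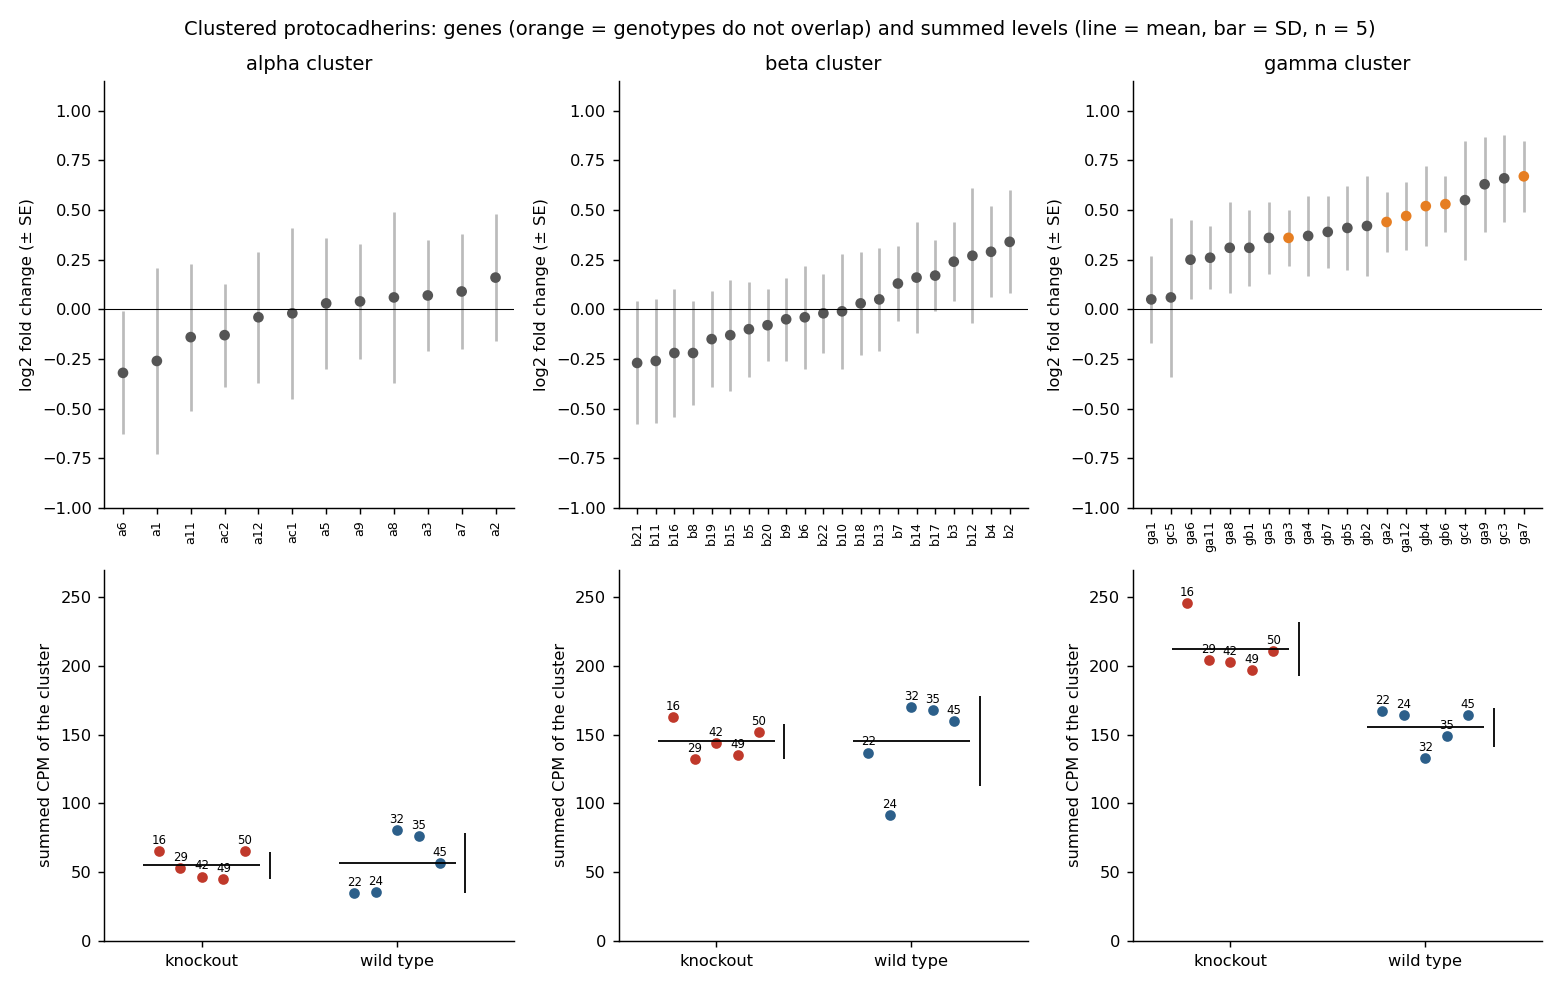
Upper row, log2 fold change, knockout over wild type, of each tested clustered protocadherin (points; bars, SE; orange, genotypes without overlap; names shortened by their Pcdh). Lower row, summed CPM of each cluster by library (points labelled by replicate; line, mean; bar, SD; n = 5); gamma sums are 197 to 246 CPM in the knockout and 133 to 167 CPM in the wild type, whereas alpha and beta sums overlap.

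Across the family, 70 of 99 members were fitted above 0, with a median log2 fold change of 0.26, against 46.3% and -0.03 over all genes tested. The count was 63 and the median 0.15 without knockout 16, 63 and 0.17 without wild-type 24, 60 and 0.17 in limma-voom, and 84 and 0.40 without wild-type 32 and 35. High and low values gathered in a few libraries. Knockout 16 held the highest value of 29 members (29.3%, against 6.98% of all genes), among them 13 gamma genes, Cdh4, Pcdh8, Pcdh9, Celsr2 and Fat3. Wild-type 24 held the lowest value of 36 members (36.4%, against 17.7% of all genes), 28 of them clustered, and wild-type 32 that of 24.

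The proteins that work with cadherins were examined from 3 lists. Of 11 junction partners (catenins and the proteins that anchor or cut cadherins), 0 were called by edgeR. At an unadjusted p under 0.05, 0 were higher and 3 lower, beside 6.40% and 6.73% of all genes. Arvcf was not analysed here. Adam10, the protease that sheds Cdh2 and gamma protocadherins from the surface, was at 216, 210, 258, 267 and 304 CPM in the knockout and 411, 385, 601, 614 and 406 CPM in the wild type. The genotypes did not overlap, and the log2 fold change was -0.95 (SE 0.18, edgeR adjusted p = 0.0517). Ctnna3, an alpha-catenin of heart and testis, was under 1 CPM in all libraries (log2 fold change -0.93, adjusted p = 0.364).

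Of 10 planar polarity partners of the Celsr proteins, 0 were called by edgeR. At an unadjusted p under 0.05, 3 were higher and 0 lower, beside 6.40% and 6.73% of all genes. The receptor Fzd6 was at 20.9, 27.5, 41.9, 49.2 and 67.2 CPM against 14.7, 14.4, 6.62, 7.10 and 22.1 CPM (log2 fold change 1.66, SE 0.39, edgeR adjusted p = 0.0997), overlapping only through knockout 16 and wild-type 45. Vangl2 was at 124 ± 35.2 against 92.6 ± 5.02 CPM (log2 fold change 0.43, adjusted p = 0.338). Of 12 regulators of clustered protocadherin choice, which include CTCF, cohesin subunits and DNA methylation factors, 0 were called by edgeR. At an unadjusted p under 0.05, 1 was higher and 1 lower, beside the same shares of all genes. The methyltransferase Dnmt3b was at 13.8 ± 2.62 against 9.68 ± 1.38 CPM (log2 fold change 0.51, adjusted p = 0.278). The cohesin subunit Smc3 was at 136 ± 8.32 against 160 ± 7.98 CPM without overlap (log2 fold change -0.24, adjusted p = 0.347).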

How the data were processed

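Whole-ganglion RNA sequencing of 10 libraries was used. The deposited files hold whole-number read counts per Ensembl gene ID, 1 file per library, made by the authors; per the submitters' processing notes the tools were STAR 2.7.10a, bcl2fastq 2.20.0.422 and featureCounts 1.5.0-p1, with GRCm39 and mm10 named as builds without a role. Strand, annotation release and the treatment of reads that fit several genes were not given in the sources used here, so genes that overlap or share exons, such as alpha and gamma protocadherins, have uncertain counts. Symbols and exon lengths came from GENCODE M21 by gene ID.

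Knockout and wild-type counts were compared with edgeR 4.0.16 (quasi-likelihood test, TMM factors, filterByExpr with a minimum count of 10, no covariate, R 4.3.3), and p-values were adjusted by Benjamini-Hochberg over all 18005 genes kept, with a threshold of 0.05. The SE of a log2 fold change is its size over the square root of F. CPM are counts over the library's sum in the tested genes times its TMM factor, so they differ somewhat from counts over the deposited total. Exact two-sided permutation tests used log2(CPM + 1) over 252 assignments, or log2 ratios to a marker sum. The code was tested on simulated data. Alternatives were RLE and upper-quartile factors, no filter, a minimum count of 50, DESeq2 1.42.0, limma-voom with quality weights (limma 3.58.1), each library left out, and pairs of libraries left out; ratios to marker lists were added after seeing the data. Counts of 1 genotype's libraries differed beyond counting noise in all 20 pairs (chi-square per gene at least 9.88), so no file was counted as a copy of another; whether libraries shared an embryo or RNA was not tested.

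Members, marker and pathway lists were chosen with earlier results of these data known. Named in full were members past the threshold, members without overlap between genotypes, the 10 with the smallest p and the 3 of highest mean CPM per subgroup; further members were named after their values were seen.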

Additional observations from a re-analysis of the deposited data

Results flagged for a closer look

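In groups of 5 libraries, a library was singled out when its distance to the nearest other one took up more than Dixon's critical share of the group's range. Over 58 groups of named members, 2 were found, and chance alone gives about 1 in 20 groups. Cdh4 reached 89.4 CPM in knockout 16, where the next knockout library was at 42.5 CPM. Cdh24 was at 36.1 CPM in wild-type 24, where the next wild-type library was at 84.6 CPM.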

How the results depend on the processing

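Members called higher numbered 0 in the reported fit, 1 without the count filter, 8 in DESeq2, 13 in limma-voom, 1 without knockout 29 and 49, and 0 to 1 with each library left out. Members called lower numbered 1 in the reported fit, 2, 3, 3 and 2 under the same alternatives, 0 without wild-type 32 and 35, and 1 to 2 with each library left out; the second was Cdh4 without knockout 16, Cdhr3 without knockout 29 and Pcdh15 without wild-type 24. Over all genes, 17 were called higher and 67 lower; the counts were 55 and 102 without the filter, 354 and 248 in DESeq2, 1264 and 1080 in limma-voom, and 0 and 19 without wild-type 32 and 35, with 6 higher without knockout 29 and 49. Leaving out each library gave 2 to 35 higher and 27 to 88 lower. Of 29 named members, 22 kept their direction in every alternative other than the ratios to marker lists. The log2 fold change of Pcdh7 turned to 0.04 with RLE factors, DESeq2 and limma-voom, 0.00 with upper-quartile factors, 0.01 without the filter, 0.06 with a minimum count of 50, 0.26 without knockout 29 and 49 and 0.36 without wild-type 32 and 35 (-0.13 to 0.21 with each library left out). That of Pcdhb22 turned to 0.03, 0.04 and 0.02 with RLE factors, a minimum count of 50 and DESeq2, 0.03 without knockout 29 and 49, 0.23 without wild-type 32 and 35 and 0.02 as a mean of log2(CPM + 1) (-0.13 to 0.11 with each library left out). Cdh11 turned to 0.18 in limma-voom and 0.13 without knockout 29 and 49 (-0.47 to 0.17), Cdh2 to -0.17 and -0.06 (-0.03 to 0.19), and Cdh24 to -0.11 in limma-voom. Without wild-type 32 and 35, Pcdh18 turned to -0.16 and Celsr3 to 0.34. As ratios to marker sums, Cdhr1 turned to 0.42 and Pcdh15 to 1.47 over nociceptor markers, Cdh1 to -0.09 over epithelial markers and Pcdh17 to -0.20 over endothelial markers. The nociceptor sum is itself lower in the knockout, which sets the sign of the first pair; the cause of the other turns was not tested. Other scaling moved the median of all genes by at most 0.06 on the log2 scale. No paired analysis was possible because no replicate number occurs in both genotypes. Depth limits knockout 49 most, where 3 counts make 0.869 CPM.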
